A study of Caenorhabditis elegans with 2 samples.

Results

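The genes plc-1, itr-1, lfe-2, ipp-5 and fln-1 act in calcium signalling and contraction of the spermatheca, the pouch of the Caenorhabditis elegans gonad in which oocytes are fertilised during ovulation. They are 5 of 19973 protein-coding genes on the nuclear chromosomes and were taken by name, with earlier results of these data known. For each gene, every region of the deposited JUN-1 peak lists was collected from 5 kb upstream of its outermost 5′ end to the gene end. This stretch is called its window. The data are chromatin immunoprecipitation sequencing (ChIP-seq) peak lists from 1 group, with 2 biological replicates. The group consisted of whole L3 larvae, male and female pooled, of strain OP234 (unc-119(ed3) III; wgIs234), in which an inserted transgene makes eGFP-tagged JUN-1. There was no second condition, so the design asks where the tagged factor lies, and no comparison between groups was possible.

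In the spermatheca, PLC-1, a phospholipase C of the epsilon class, cleaves a membrane lipid to release the messenger IP3. IP3 opens ITR-1, the IP3 receptor, which lets calcium out of the endoplasmic reticulum. LFE-2, an IP3 kinase, and IPP-5, an inositol polyphosphate phosphatase, both use up IP3 and so restrain the signal, and FLN-1, a filamin, crosslinks the actin that the contraction pulls on. JUN-1 is a bZIP factor that pairs with FOS-1, and genetic work has linked this pair to plc-1 expression in the spermatheca. The spermatheca differentiates after the L3 stage, and a ChIP from whole larvae pools all tissues, so a region listed here cannot be assigned to the cells that form it.

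The following sequences are shown because they carry the centre of the itr-1 region and the places where the AP-1 letters TGACTCA, the element of FOS-JUN pairs, lay inside a listed region or beside a transcript start. All are read 5′ to 3′ on the sense strand of the gene from the RefSeq copy of WBcel235. In the first, which reaches 50 bases to each side of the summit, capitals mark the GATA letters TGATAA read from the other strand. In the others capitals mark TGACTCA on either strand, with 10 bases on each side.
itr-1 summit, chrIV:7679222-7679322, plus strand: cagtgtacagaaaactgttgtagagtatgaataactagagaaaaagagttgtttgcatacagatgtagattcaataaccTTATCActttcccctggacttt
plc-1 site in an intron, chrX:10797907-10797933, minus strand: ctagccgacaTGACTCAacgctcaata
plc-1 site beside a 5′ end, chrX:10811660-10811686, minus strand: ctagtagatcTGAGTCAaaaatttttt
plc-1 site in a coding exon, chrX:10821247-10821273, minus strand: tcatcggtaaTGAGTCAaaggtcgtcc
fln-1 site upstream, chrIV:379610-379636, minus strand: ttcatttaatTGAGTCAaaaaatacag

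The receptor gene itr-1 and the kinase gene lfe-2 held regions of the authors' IDR list, and plc-1, ipp-5 and fln-1 held none. IDR stands for irreproducible discovery rate, which scores whether a region keeps its place from one replicate to the other, and the list that passed it has 2738 regions. The windows of the 5 genes held 3 of them, 2 at lfe-2 and 1 at itr-1. Of all 19973 coding genes 20.7% had an IDR region in the same kind of window. Longer windows held one more often: 19.2% of those of 5 to 10 kb, 27.5% of 10 to 15 kb, 29% of 15 to 20 kb, 34% of 20 to 30 kb and 37.1% of 30 kb and more. The 2 of 5 genes are read against these shares and are no result about the 5 as a set. The window of plc-1, the longest of the 5 at 48.8 kb, lies in the class where an IDR region was most frequent.

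**Figure D1:**
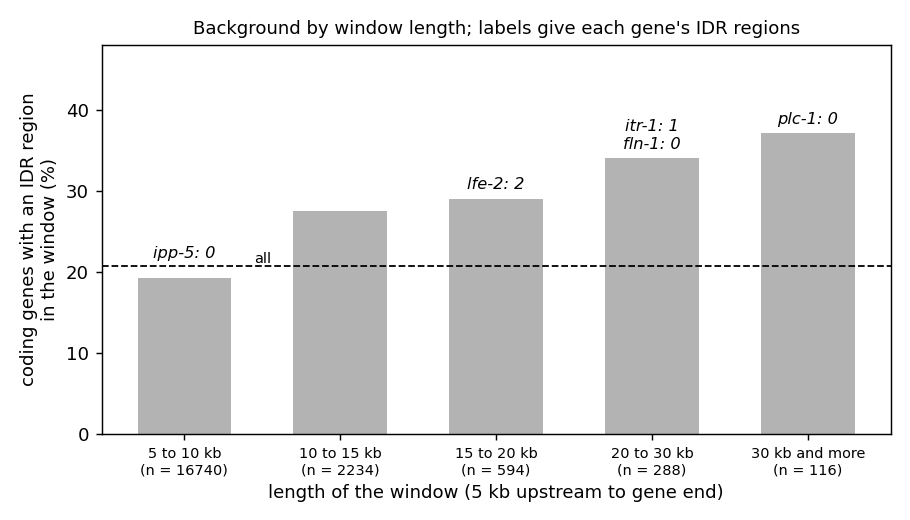
Percent of coding genes with at least 1 IDR region between 5 kb upstream and the gene end (y axis) by window length (x axis), with the number of genes in each class. The dashed line is the 20.7% of all coding genes, and the label on a bar gives the number of IDR regions at each of the 5 genes, 2 for lfe-2, 1 for itr-1 and 0 for plc-1, fln-1 and ipp-5.

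Below the IDR list lie the longer lists that went into it: 20820 pooled regions, 27417 of replicate 1 and 28475 of replicate 2. The authors label the pooled list as peaks and background as input for IDR, so a region in it need not be a binding site. Each region has a signal value, a number given by the authors on a scale that is not stated, so values are compared within a list only. Signal values run from 8.67 to 474 in the pooled list (median 12.9), from 3.57 to 206 in replicate 1 (median 5.59) and from 4.36 to 278 in replicate 2 (median 6.96). The lowest value in the IDR list is 31.4. Each region also has the authors' −log10 of a q-value, which is low where the evidence for a region is weak. Its highest value in the pooled list is 3.73, which 2677 regions share. In the pooled list the 5 windows held 27 regions, of which 20 had their summit downstream of the outermost 5′ end and 7 upstream. Of all pooled summits, in such windows or not, 52.1% lay inside a coding gene. A region of both replicates lay within 200 bp of the summit for 16 of the 27, and each of the 27 was matched in at least 1 replicate. Over the whole pooled list these shares were 50.8% for both and 96.7% for at least 1. Read depth is unknown, and no control library was analysed here.

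**Figure D2:**
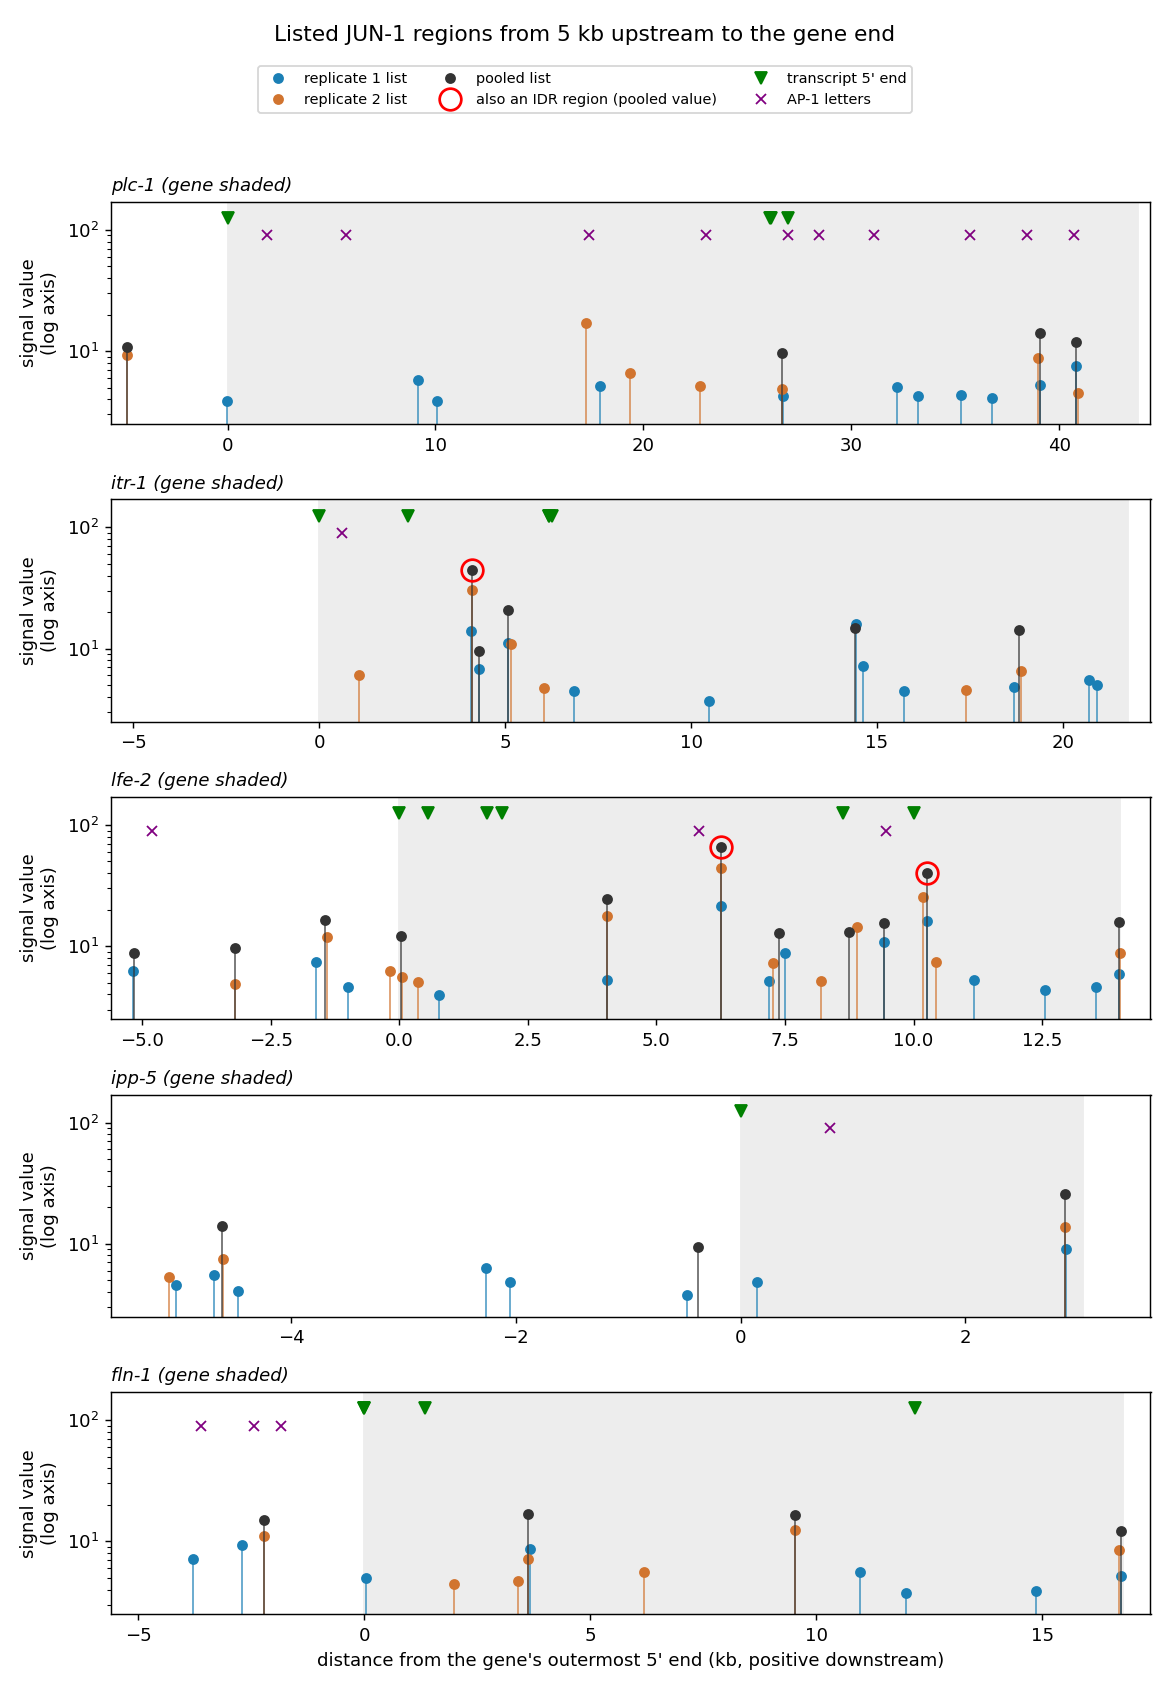
Signal value (y axis, log scale) of every listed region at the 5 genes against the distance of its summit from the outermost 5′ end of the gene in kb (x axis), for the pooled and both replicate lists. The 3 circled IDR regions lie inside itr-1 and lfe-2, downstream of the outermost 5′ end, while the plc-1 regions of the pooled list stay at or below 14.2.

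At plc-1, the source of IP3, the pooled list held weak regions only, and replicate 2 alone listed a stronger one. The gene (WBGene00004036) lies on chrX:10794857-10838650 on the minus strand and has 12 annotated transcripts from 4 distinct 5′ ends, of which the outermost is 26945 bp from the innermost. The pooled list held 4 regions in its window, with signal values of 14.2, 11.8, 10.8 and 9.65. Their −log10 q was 0.381, 0.171, 0.111 and 0.0518 in the same order. The strongest, at chrX:10799355-10799744, was in a coding exon 12155 bp downstream of the nearest plc-1 5′ end (5.22 in replicate 1 and 8.85 in replicate 2). Its pooled value was rank 8918 of 20820, so 57.2% of pooled regions were lower. The next, at chrX:10797645-10798034, lay in an intron nearby (11.8 pooled, 7.58 and 4.51). Neither is near a plc-1 start.

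One weak plc-1 region did lie at a transcript start. At chrX:10811773-10812162, in an intron, its summit was 263 bp upstream of the 5′ end of F31B12.1f.1, the innermost plc-1 start. Its signal value was 9.65 in the pooled list, 4.22 in replicate 1 and 4.87 in replicate 2, and 16.7% of pooled regions were lower. The outermost start, used by 7 of the 12 transcripts, had no pooled region closer than 4825 bp upstream. That region (10.8 pooled) was within a coding exon of the neighbouring gene C05A9.2 and was matched only in replicate 2 (9.30). Replicate 1 alone listed a region at the outermost start (3.85, of a list whose lowest value is 3.57).

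The strongest plc-1 region of any replicate list was seen in replicate 2 only. It lay at chrX:10821214-10821609, with a signal value of 17.1 (rank 3278 of 28475, −log10 q of 2.78), and neither replicate 1 nor the pooled list had a region within 200 bp of its summit. Among the 3278 strongest regions of replicate 2, 20 (0.61%) had no pooled region and 275 (8.39%) no replicate 1 region that close. The summit lay in an exon of the noncoding RNA F31B12.6. It was 14 bp from a transfer RNA gene for glutamate, F31B12.t1 (WBGene00014361, chrX:10821327-10821398), which sits within a plc-1 intron. The 72 bases of this gene occur 15 times in the genome with no mismatch, so reads from them cannot be placed on 1 copy by their sequence alone. A transfer RNA gene was overlapped by 108 (3.29%) of the 3278 strongest regions of replicate 2 and by 8 of the 275 without a replicate 1 region. Of the 20 without a pooled region 1 overlapped such a gene, and that is the plc-1 region itself. The part played by the repeated gene in this value was not tested.

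The plc-1 window had 10 copies of the AP-1 letters, or 0.205 per kb, against 0.0961 per kb over the merged windows of all coding genes. The windows of lfe-2 (3 copies, 0.158 per kb), fln-1 (3 copies, 0.138 per kb) and ipp-5 (0.124 per kb) were above that value too, and that of itr-1 (0.0374 per kb) was below it. At plc-1 most were outside any listed region: 1 lay in a pooled region and 2 in a region of replicate 2, one of these the same site. The intronic site printed above was 80 bp from the summit of the pooled region with a signal value of 11.8. The site in a coding exon was 152 bp from the summit of the region seen in replicate 2 only, and 8688 bp upstream of the nearest plc-1 start. The site beside a start was 32 bp downstream of the 5′ end of F31B12.1f.1, in a 5′ UTR, and in no listed region. A match to these letters describes the sequence only. The itr-1 window had 1 copy, in an intron 610 bp downstream of the outermost start, and the ipp-5 window 1, in a coding exon 795 bp downstream of its start, neither in a listed region.

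The receptor gene itr-1 carried 1 IDR region inside the gene, between its upstream and downstream starts. The gene (WBGene00002173) lies on chrIV:7675174-7696930 on the plus strand, with 6 transcripts from 5 distinct 5′ ends. The IDR region, at chrIV:7679077-7679466, had a signal value of 44.7 in the pooled list, 13.9 in replicate 1 and 30.2 in replicate 2. It ranked 1558 of 2738 in the IDR list, 2772 of 27417 in replicate 1 and 1234 of 28475 in replicate 2, so it was higher in the list of replicate 2. Its summit was 4098 bp downstream of the 5′ end of F33D4.2a.1, 1704 bp downstream of that of F33D4.2d.1 and 2085 to 2153 bp upstream of the starts of the other 4 transcripts. It lay in an itr-1 intron and within the annotated exon of a noncoding RNA, C08G9.9, and was outside the promoter windows (1000 bp upstream to 500 bp downstream of a coding 5′ end).

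Other itr-1 regions were weaker and differed between the replicates. A pooled region at chrIV:7680043-7680432, with its summit 1119 bp upstream of the F33D4.2e.1 start, had a signal value of 20.7 (11.1 in replicate 1 and 10.9 in replicate 2). A shoulder of the IDR region at chrIV:7679280-7679669 had 9.56 and was matched in replicate 1 only (6.85). In replicate 1 the strongest itr-1 region was another one, in a coding exon at chrIV:7689417-7689800 with 16.0 (rank 2216), for which the pooled list gave 14.8 and replicate 2 no region within 200 bp. A pooled region in a coding exon at chrIV:7693808-7694197 had 14.2 (4.85 and 6.58). No pooled region lay upstream of the outermost itr-1 start.

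**Figure D3:**
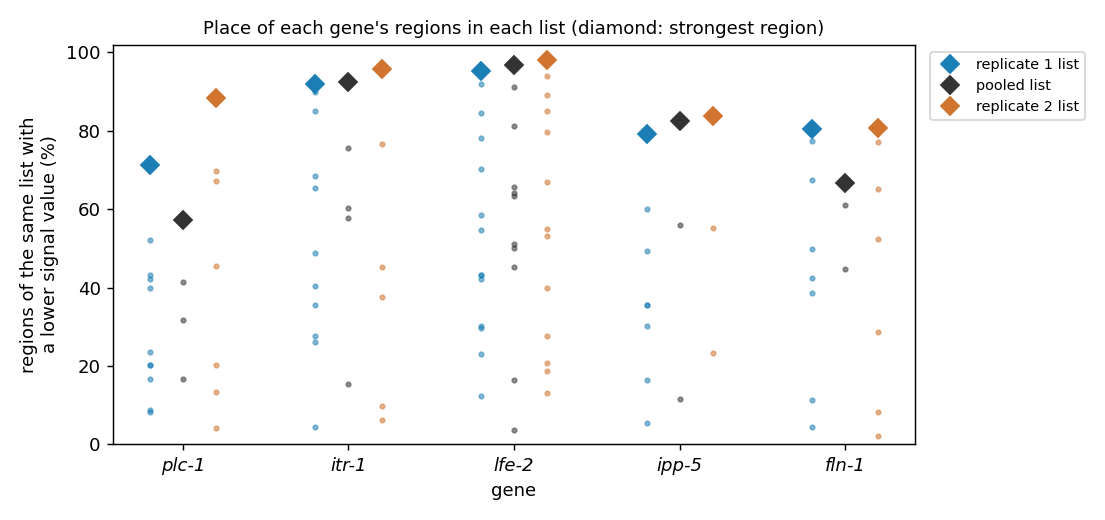
Place of each region within its own list, as the percent of the list's regions with a lower signal value (y axis), for the 5 genes (x axis) in replicate 1, the pooled list and replicate 2. Diamonds mark the strongest region of a gene in that list: those of lfe-2 are above 95% in all 3 lists and those of itr-1 above 91%, while that of plc-1 is at 57.2% in the pooled list and 88.5% in replicate 2.

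Of the genes that restrain IP3, lfe-2 had the strongest region of the 5 in each list and the highest density of pooled regions. In replicate 1 the density was higher at ipp-5 (0.994 per kb) than at lfe-2 (0.737 per kb). The gene (WBGene00002979) lies on the plus strand of chromosome I, from 5027155 to 5041160, and has 6 transcripts, each with its own 5′ end. Its window held 11 pooled regions, or 0.579 per kb, and 92.9% of the 594 coding genes with windows of 15 to 20 kb had a lower density. Their median was 0.187 per kb. The 2 IDR regions lay inside the gene, and 9.26% of genes in this class had 2 or more. No sequence of this gene is printed.

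The stronger lfe-2 IDR region, from 5033224 to 5033613, was in an intron. It had a signal value of 65.7 pooled, 21.6 in replicate 1 and 44.6 in replicate 2, with rank 680 of 2738 in the IDR list, 1267 in replicate 1 and 530 in replicate 2. Its summit was 2373 bp upstream of the 5′ end of C46H11.4b.1 and 3735 bp upstream of that of C46H11.4a.1, the innermost starts, and 4260 to 6264 bp downstream of the other 4 starts. In the class of windows of 15 to 20 kb, 90.1% of genes had a weaker strongest region in the pooled list.

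The weaker lfe-2 IDR region was at the innermost start. It ran from 5037218 to 5037607, with a signal value of 40.4 pooled, 16.1 in replicate 1 and 25.2 in replicate 2. Its summit, in a coding exon, was 259 bp downstream of the C46H11.4a.1 5′ end. This made lfe-2 the only one of the 5 genes with an IDR summit in a promoter window, against 9.5% of all coding genes. Each distinct 5′ end has its own promoter window, and lfe-2 has 6 such ends. The 9.5% is not matched for the number of starts, here or for the related lists below.

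Around these, lfe-2 had lower regions on both sides. An intronic region from 5030995 to 5031384 had 24.6 pooled and stood far higher in replicate 2 (17.9, rank 3081) than in replicate 1 (5.21, rank 15578). An intergenic one from 5025521 to 5025910, 1439 bp upstream of the outermost start, had 16.4 (7.41 and 11.9). At the far end, in the 3′ UTR, a region from 5040961 to 5041350 had 15.9 (5.90 and 8.80), with its summit 214 bp from the start of the next gene, C46H11.3. The other 6 had pooled values of 8.87 to 15.6. Among them was the region at the outermost start, with its summit 31 bp downstream of the C46H11.4c.1 5′ end (12.2 pooled, 5.52 in replicate 2 and none in replicate 1). Its pooled −log10 q was 0.204, against 3.73 for both lfe-2 IDR regions. Another of the 6 had its summit 105 bp downstream of the C46H11.4b.1 5′ end, in a 5′ UTR (13.1 pooled, 14.5 in replicate 2 and none in replicate 1). A region from 5036388 to 5036777 (15.6 pooled, 10.9 in replicate 1, none in replicate 2) was the only one of the 27 pooled regions with the AP-1 letters within 50 bp of its summit, at 39 bp.

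At ipp-5, the phosphatase gene, the regions were weak near the start and stronger at the far end. This is the shortest gene of the 5 (WBGene00002146, chrX:6031469-6034515, plus strand, 2 transcripts from 1 start). Its strongest region, at chrX:6034162-6034551, had a signal value of 26.0 pooled, 9.03 in replicate 1 and 13.7 in replicate 2. It ranked 3635 in the pooled list, below the 2738 of the IDR list. The summit was in the 3′ UTR, 2888 bp downstream of the start, and the region also overlapped the annotated hsp-25 gene. The coding start nearest this summit was that of hsp-25, 1419 bp away. Near the ipp-5 start, a region with its summit 378 bp upstream had 9.32 pooled (3.77 in replicate 1, the 25906th of 27417, and none in replicate 2). Its pooled −log10 q was 0.0391, against 2.17 for the region in the 3′ UTR. The remaining pooled region, at chrX:6026661-6027050, was 4613 bp upstream (13.9 pooled, 5.55 and 7.42). Replicate 1 alone also listed a region 145 bp downstream of the start (4.85).

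At fln-1, the filamin gene, the 4 pooled regions were weak and spread over the window. Their pooled −log10 q ran from 0.201 to 0.652. The gene (WBGene00022048, chrIV:359223-376015, minus strand) has 18 transcripts from 4 distinct 5′ ends. The strongest region, in an intron at chrIV:372193-372582, had 16.7 pooled, 8.63 in replicate 1 and 7.17 in replicate 2, with its summit 2276 bp downstream of a start. The next, also intronic, at chrIV:366290-366679, had 16.5 and was matched in replicate 2 only (12.3), as was an intergenic region 2220 bp upstream of the outermost start (15.02 pooled, 11.03 in replicate 2). The fourth had 12.2 (5.18 and 8.55) and lay where the 3′ UTRs of fln-1 and cdh-8 overlap. In windows of 20 to 30 kb, 38.9% of the 288 genes had a weaker strongest pooled region than fln-1, and 77.1% a weaker one than itr-1. The AP-1 letters printed above lay 188 bp from the summit of a region that replicate 1 alone listed (7.08), 3608 bp upstream of fln-1. The fln-1 window also had 4 copies of the CRE letters TGACGTCA, the element of ATF and CREB type bZIP factors, or 0.184 per kb against 0.0604 per kb over all windows. Other letters were above the value of all windows there too: GAGAGAGA (11 copies, 0.505 against 0.168 per kb) and CACGTG (0.275 against 0.180 per kb). At the outermost fln-1 starts replicate 1 alone listed a region, 36 bp downstream of one of them (4.95).

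Ordered by the strongest pooled region, the genes ran lfe-2 (65.7), itr-1 (44.7), ipp-5 (26.0), fln-1 (16.7) and plc-1 (14.2). Replicate 1 gave 21.6, 16.0, 9.03, 9.38 and 7.58 for the same genes in that order, and replicate 2 gave 44.6, 30.2, 13.7, 12.3 and 17.1. Both replicates placed lfe-2 first and itr-1 second. The order of ipp-5, fln-1 and plc-1 differed between the replicates, with plc-1 last in replicate 1 and next after itr-1 in replicate 2 through the region at the transfer RNA gene. The 9.38 of fln-1 came from an intergenic region 2711 bp upstream of its outermost start, which replicate 1 alone listed. The strongest pooled fln-1 region had 8.63 in replicate 1, below the 9.03 of ipp-5. The density of pooled regions was lowest at plc-1, 0.0820 per kb, which was above that of 19.8% of the 116 genes with windows of 30 kb and more. By the pooled value of its strongest region plc-1 was above 25.9% of that class. Many replicate regions had no pooled region within 200 bp of the summit: 8 of 11 in replicate 1 and 3 of 7 in replicate 2 at plc-1, 6 of 11 and 3 of 6 at itr-1, 6 of 14 and 3 of 13 at lfe-2, 4 of 8 and 1 of 3 at ipp-5, and 6 of 8 and 3 of 7 at fln-1. Over the whole lists 47.4% of replicate 1 regions and 41.6% of replicate 2 regions had none that close.

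The 3 IDR regions lay inside their gene, downstream of at least 1 start and, for the itr-1 region and the stronger lfe-2 region, upstream of others. Over the whole lists, 32.2% of IDR summits and 52.1% of pooled summits lay inside a coding gene. The window itself favours this position, since the gene makes up 21.8 of 26.8 kb at itr-1 and 14.0 of 19.0 kb at lfe-2. Each of the 3 had the GATA letters TGATAA within 50 bp of the summit, on either strand, with 3 copies at the stronger lfe-2 region. At the weaker lfe-2 region this holds for the pooled and replicate 1 summits, while the replicate 2 summit had 0 copies. These letters were within the same distance in 24% of all IDR regions and 15.5% of pooled regions, and in 6 of the 27 pooled regions at these genes. The letters were also frequent in the windows as such, at 1.74 per kb for lfe-2, 1.27 for itr-1 and 1.12 to 1.25 for the other genes, against 1.06 per kb over all windows. None of the 3 had the AP-1 letters there, which were in 3.4% of all IDR regions and 1.75% of pooled ones. The CRE letters, the E-box CACGTG and the GAGA repeat GAGAGAGA were at none of the 27 summits. They were in 0.72%, 2.78% and 2.51% of all pooled regions.

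The gene whose strongest IDR region was most like that of itr-1, by the distance in log10 signal value over the 3 lists, was K08H2.10 (44.5 pooled, 13.9 in replicate 1 and 29.8 in replicate 2), of 4106 genes compared. For lfe-2 it was the 1 region that B0302.4 and sid-3 share (67.0 pooled, 21.2 and 45.2), of 4105. The likeness rests on 2 samples.

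Of other genes of IP3 and calcium stores, 8 of 14 had an IDR region in the window (57.1%), against 20.7% of all coding genes. The median of the strongest pooled signal value per gene was 39.9 in this list and 12.8 over all coding genes. The windows differ in length, with a median of 10.8 kb here and 7.03 kb for all coding genes, and 27.5% of coding genes with windows of 10 to 15 kb had an IDR region. An IDR summit lay in a promoter window for 5 of the 14 (35.7%, against 9.5%). The calmodulin gene cmd-1 had the highest value (239 pooled, 114 in replicate 1 and 128 in replicate 2), in a region 4777 bp upstream of its start, within a long noncoding RNA, linc-128. The calreticulin gene crt-1 followed (87.6 pooled, 45.1 and 42.4), with the summit 272 bp upstream of its start. The phospholipase C gene plc-2 had 4 IDR regions. The strongest of these (84.2 pooled, 50.03 and 45.8) lay 69 bp from the start of bath-36, and 1 (46.2) was 72 bp downstream of the plc-2 start. The fourth by value was orai-1, for a calcium channel of the plasma membrane (49.7 pooled, 24.2 and 23.9). The genes tax-6 and cnb-1 for calcineurin, mcu-1 for the mitochondrial uniporter and sca-1 for the calcium pump of the endoplasmic reticulum had 37.2 to 49.6. No IDR region lay in the windows of egl-8, plc-3, plc-4, pll-1, unc-68 and stim-1, and unc-68, the ryanodine receptor gene, and stim-1 had no pooled region at all. The value for egl-8, 31.1, was just under the lowest of the IDR list.

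Of the genes that signal to ovulation, 5 of 9 had an IDR region in the window (55.6%, against 20.7% of all coding genes and 27.5% of those with windows of 10 to 15 kb), and the median window was 14.7 kb. The EGF gene lin-3 and its receptor gene let-23 were not among the 5. An IDR summit lay in a promoter window of 4 of the 9 (44.4%, against 9.5%). For gsa-1, a G protein alpha subunit gene, the stronger of 2 IDR regions (69.1 pooled, 35.7 in replicate 1 and 33.1 in replicate 2) was nearest the start of vps-4, and the other (44.0) was 159 bp upstream of gsa-1. The phosphodiesterase gene pde-6 had 56.8 (26.2 and 35.3) in a region nearest the start of Y95B8A.6. The protein kinase A gene kin-1 had 47.1 (23.6 and 27.2), 284 bp upstream of a start. For ppk-1, a phosphoinositide kinase gene, the region (34.8 pooled) was nearest the start of dhs-2. The window of lin-3 held no pooled region, and the strongest at let-23 had 16.4. The listed gene emo-1 has no entry under that name in the annotation and was left out.

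Of genes of actomyosin and its control, 2 of 16 had an IDR region in the window (12.5%, against 20.7% of all coding genes and 27.5% of those with windows of 10 to 15 kb), and the median window was 13.2 kb. None had an IDR summit in a promoter window, against 9.5%. The GTPase gene rho-1 had 3, with signal values of 121, 80.8 and 55.7 and summits 1195 to 3405 bp upstream of its start. The alpha-actinin gene atn-1 had 1 (52.0 pooled, 19.6 in replicate 1 and 32.5 in replicate 2), 2866 bp upstream. The other 14, with the kinase gene let-502 (29.9) and the myosin phosphatase gene mel-11 (29.3) at the top, had a strongest pooled value of 11.1 to 29.9. The second filamin gene, fln-2, had the lowest of these, 11.1.

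**Figure D4:**
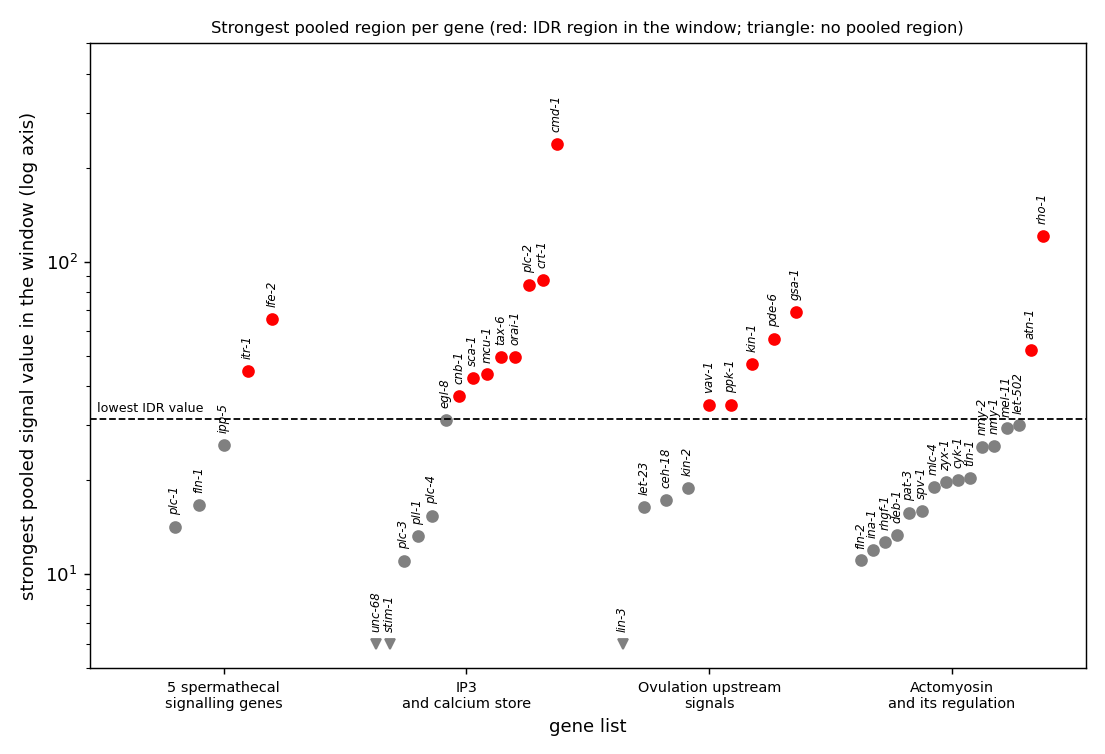
Strongest pooled signal value in the window (y axis, log scale) of each gene in the 5 spermathecal signalling genes and in 3 related lists (x axis). Red points had an IDR region, grey ones none, and triangles at the foot mark genes with no pooled region. The dashed line is the lowest value in the IDR list, 31.4. Below it lie 14 of 16 actomyosin genes, 6 of 14 calcium store genes and 4 of 9 ovulation genes. Of all coding genes 20.7% had an IDR region in the window, and the lists differ in window length.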

How the data were processed

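Peak lists in narrowPeak format, deposited on build ce11, were used, and the lists on ce10 were not used here. Per the text files deposited with the samples, the authors derived each replicate list from the alignments of that replicate with a control, the pooled list from both replicates, and the IDR list from the pooled and both replicate lists. The signal value of each region was deposited by the authors on a scale that is not stated. The −log10 of a q-value per region is likewise the authors' own. The sources used here do not give the peak caller, the aligner or their versions. Depth is unknown.

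Regions of each list that overlapped a gene's window by at least 1 base were kept, with genes from Ensembl release 115 on WBcel235, whose chromosome names and lengths fit the ce11 coordinates. Replicate regions were matched by the nearest summit within 200 bp. Motif letters were sought in both orientations up to 50 bp from each summit, and their shares were taken over all IDR and all pooled regions. No test was run, since there is 1 group, and the 5 genes, lists and rules were chosen with earlier results of these data known. Named genes were the 5 members with all IDR and the 3 strongest other pooled regions each (all 4 where a gene had so few), up to 4 genes of highest value per related list and each such gene where 5 or fewer had one, the genes nearest an IDR region, and the genes most alike in signal value. The values of 1 gene that this rule names are not reported here. Genes of the lists named beyond this rule were chosen after their values were seen. The overlap, ranking and motif functions were tested on simulated data. Python 3.11.15, numpy 2.4.6, pandas 2.3.3 and matplotlib 3.10.9 were used.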

Additional observations from a re-analysis of the deposited data

How the results depend on the processing

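The 3 IDR regions at 2 genes, itr-1 and lfe-2, were found as well with 2 kb upstream, with the gene body only, with summits inside the window, and with as many top regions of either replicate alone (3 regions, range 3 to 3, at 2 genes, range 2 to 2). In replicate 1 alone the itr-1 region among these was the one in a coding exon, not the IDR region. With 10 kb upstream there were 5 regions at 4 genes, the added ones nearest the starts of rps-24 (for fln-1) and lelo-3 (for ipp-5). With the stronger part of the IDR list alone there was 1 region at 1 gene, lfe-2. The place of the strongest region, as percent of the list that is lower, ranged without a replicate from 71.3 to 88.5 for plc-1 (57.2 pooled), 91.9 to 95.7 for itr-1 (92.5), 95.4 to 98.1 for lfe-2 (96.7), 79.1 to 83.8 for ipp-5 (82.5) and 80.4 to 80.7 for fln-1 (66.7). The strongest region can be a different one in each list. Measured from the outermost start only, the distance of the strongest region became 39100 bp for plc-1, 4098 bp for itr-1 and 3627 bp for fln-1, and for lfe-2 it turned from 2373 bp upstream to 6264 bp downstream, by construction. Of the 27 pooled regions, 2 had the AP-1 letters within 100 bp and 2 anywhere in the region, against 1 within 50 bp. For GATA these were 12 and 14 against 6, for the GAGA repeat 1 and 2 against 0, and for the CRE and the E-box 1 each in the whole region against 0. The shares of all pooled regions at these wider settings are not given here, so no excess can be read from these counts. No paired analysis was possible because there is 1 group. With depth unknown, no limit can be set on what the lists missed.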
